A study of Mus musculus with 12 samples.

Results

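The B-cell receptor complex and its proximal signalling proteins were represented by 9 genes, taken by name: Cd79a, Cd79b, Blnk, Blk, Btk, Syk, Cd22, Cd72 and Ms4a1. All 9 were among the 27179 genes of the deposited count table, and 8 of them passed the filter on low counts, which left 14473 genes for testing. Ms4a1 was the member that did not pass. The genes were followed in RNA-seq libraries of sorted hematopoietic stem cells from 12 C57BL/6J mice, with 3 mice for each of 4 genotypes. Group WT (libraries WT2, WT3 and WT4) was wild type. Group E (E1, E2 and E3) carried Emu-myc, a transgene in which the immunoglobulin heavy chain enhancer, active mainly in the B lineage, drives Myc. Group C (C1, C2 and C3) was Casp1 -/- Casp11 -/-, a joint loss of the genes for 2 inflammatory caspases. Group CE (CE1, CE2 and CE3) had both changes, and its controls in group C therefore carry the caspase deletion as well. The labels give no age and no sort markers.

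On a B cell the membrane immunoglobulin binds antigen but has almost no cytoplasmic tail, and signals through a heterodimer of CD79A and CD79B. Kinases of the Src family, BLK and LYN among them, phosphorylate the tyrosine motifs of this heterodimer, and SYK docks there and is activated. SYK phosphorylates the adaptor BLNK, which holds BTK and phospholipase C gamma 2 together, and calcium and diacylglycerol signals follow. CD22 and CD72 are surface proteins that recruit the phosphatase SHP-1 and dampen the signal, and MS4A1 (CD20) is a surface protein of mature B cells. SYK and BTK also act in myeloid cells. CD79A, CD79B and BLNK are made from the pro-B stage on, before a complete receptor is present.

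Libraries held 24529611 to 34065910 counts, and levels are given as CPM, counts relative to the library size after TMM scaling. Casp1 lay at 29.8 to 47.8 CPM in the 6 libraries of WT and E and at 5.10 to 6.76 in the 6 of C and CE, in the direction of the caspase labels. Casp4, the gene listed for Casp11, lay at 12.04 to 17.2 CPM in WT and E and at 7.07 to 13.7 in C and CE, with overlap, so its counts do not check that label. Myc lay at 319.4 to 448.5 CPM over all libraries and did not check the transgene label. The stem cell markers Kit (363.9 to 508.1 CPM), Hlf (66.9 to 144.5) and Procr (8.28 to 18.4) were counted in every library. Slamf1 (3.38 to 5.05 CPM) and Hoxb5 (0.566 to 1.94), of the same list, were low but also counted in every library. So was Mpo, a granulocyte enzyme gene that myeloid progenitors use, at 5456 to 9054 CPM. Cr2 and Fcmr, markers of mature B cells, stayed at or below 0.311 and 0.459 CPM, and the T-cell gene Cd3e at or below 0.208. Other genes of those lists were higher, with Ighm at 328.5 to 1140 CPM, Cd74 at 85.3 to 156.7 and Nkg7 at 128.9 to 224.2. Lck was at 24.3 to 57.3 CPM, Cd4 at 4.24 to 8.10, Ighd at 1.30 to 3.41 and Igkc at 5.95 to 310.8. Whether mature B cells or T cells lay among the sorted cells was not tested. Libraries differed in 3 ways that the genotypes do not give. C1 and C3 held counts for 22900 and 21247 genes, against 17310 to 18863 in the others. Transcripts of the Y chromosome summed to 91.4 to 121.5 CPM in group C and in CE1 and CE2, and to at most 0.263 in CE3, WT and E. For C against WT the sex of the mice and the caspase genotype cannot be told apart. E1 and E2 were high in immunoglobulin kappa and joining chain transcripts (values below, beside Ms4a1). Results for the members are given with and without these libraries where that changes a call.

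Per kilobase of exon, which allows levels to be compared between genes, Btk was highest in each genotype, at 40.1 to 45.1 CPM per kb as a group mean. Cd79b followed in WT (37.8), E (33.3) and C (37.0), with Syk between 25.8 and 33.6. In CE the means of Syk (33.6 ± 0.937) and Cd79b (30.3 ± 4.57 CPM per kb, SD, n = 3 each) lay within the spread of Cd79b. Cd72 stood at 8.49 to 10.1 CPM per kb and Cd79a at 3.21 to 19.2. Blnk was at 1.60 to 4.17, Blk at 0.621 to 2.21 and Cd22 at 0.127 to 0.363 CPM per kb. Ms4a1 was last, with at most 0.0736 as a group mean. Thus the kinases shared with myeloid cells, and Cd79b, were well measured in these stem cell libraries, whereas Blk, Cd22 and Ms4a1 rested on few reads.

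**Figure D1:**
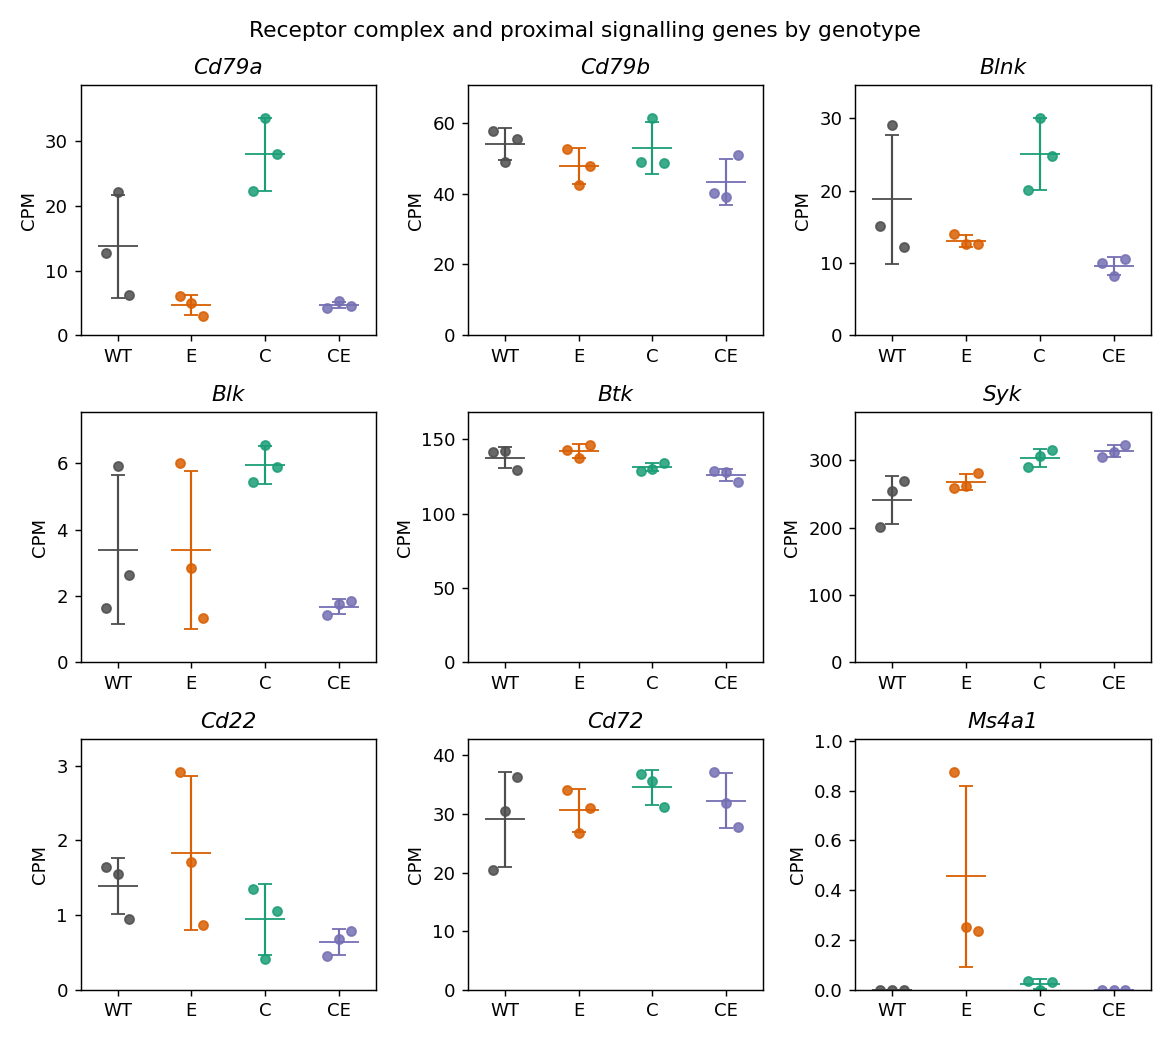
Level of each of the 9 genes in CPM (linear axis from 0) by genotype. Each point is 1 library, the long bar is the mean and the whiskers are 1 SD (n = 3). Cd79a, Blnk and Blk were highest in C and low in CE, Btk and Syk varied little, and Ms4a1 was near 0 outside E.

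Cd79a and Cd79b encode the signalling chains of the receptor. Cd79a (gene 12518, chr7:24897497-24901858, mm10) was at 12.7, 22.2 and 6.28 CPM in WT2, WT3 and WT4. It was at 6.04, 4.97 and 3.04 CPM in E1, E2 and E3, and at 4.22, 5.23 and 4.57 in CE1, CE2 and CE3. In C1, C2 and C3 it reached 22.4, 33.6 and 28.0 CPM. All libraries of C lay above all others, with WT3 just below C1, the E and CE libraries overlapped, and WT spread from the level of E to that of C. Over both caspase backgrounds together, that is (E + CE) against (WT + C), Cd79a fell 4.20-fold with the transgene (log2 -2.07, SE 0.25, edgeR adjusted p = 0.000813), and it passed in all 21 alternative fits (adjusted p at most 0.0119). Within the caspase knockout it fell from 28.0 ± 5.64 to 4.67 ± 0.515 CPM (SD, n = 3 each, log2 -2.58, SE 0.35, edgeR adjusted p = 0.00708). With intact caspases the log2 difference of E from WT was -1.56 (SE 0.35) and did not pass (edgeR adjusted p = 0.227), although the groups did not overlap. It passed in 4 of 22 alternative fits, among them limma voom (adjusted p = 0.039) and the fit without WT4 (0.00652), the wild-type library with the lowest level. Another was the replicate block, which also takes WT4 out of the WT mean. The difference did not pass with DESeq2 (adjusted p = 0.0825) or when only WT and E were fitted (edgeR adjusted p = 0.591). The test of the difference between both transgene effects gave log2 -1.03 (SE 0.48, unadjusted p = 0.051, edgeR adjusted p = 0.9997), so a larger effect without the caspases is not shown.

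The call of CE against C for Cd79a was lost without CE1 (log2 -2.51, edgeR adjusted p = 0.0844), without CE3 (log2 -2.56, 0.0536), and without C1 and C3 together (log2 -2.85, 0.133). A covariate for Y-linked transcripts varies within a genotype only in CE, where CE3 lacks them. With it, CE against C rests on CE1 and CE2, as in the fit without CE3 (log2 -2.57, edgeR adjusted p = 0.0448). It therefore cannot adjust this comparison for sex. In C against WT, Cd79a differed by log2 1.02 (SE 0.33, edgeR adjusted p = 0.0898), with groups that did not overlap. It passed there in 2 of 22 alternative fits, without WT3 (log2 1.55, adjusted p = 0.0346) and with no filter on low counts. In CE against E the difference was log2 -0.00 (SE 0.36). In these bulk libraries, fewer cells with B-lineage transcripts and less such RNA per cell cannot be told apart.

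Cd79b (gene 15985, chr11:106311341-106314562) did not share this pattern. It was at 57.7, 49.0 and 55.4 CPM in WT2, WT3 and WT4 and at 52.6, 42.5 and 47.9 in E1, E2 and E3. It was at 49.0, 61.4 and 48.5 CPM in C1, C2 and C3 and at 40.1, 39.0 and 50.8 in CE1, CE2 and CE3. The groups overlapped in all 4 comparisons of genotypes. Over both backgrounds its log2 difference with the transgene was -0.24 (SE 0.09, unadjusted p = 0.0215, edgeR adjusted p = 0.447), and in CE against C it was -0.29 (SE 0.13, adjusted p = 0.921). Per kilobase, Cd79b exceeded Cd79a 1.95 ± 0.246-fold in C and 9.53 ± 1.88-fold in CE (SD, n = 3 each). In WT the ratio averaged 5.29 ± 3.41, and in E it averaged 11.2 ± 4.17 (SD, n = 3 each). Thus the transcripts of both chains were nearest to equal levels per kilobase in C, where the ratio was 1.76 to 2.23 in every library. It was 7.58 or more in every library of E and CE, and in WT it ran from 2.25 in WT3 to 8.97 in WT4. Since Cd79b varied little, the ratio largely restates Cd79a.

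Blnk (gene 17060, chr19:40928927-40994221), the adaptor that SYK phosphorylates, was at 15.1, 29.0 and 12.3 CPM in WT2, WT3 and WT4. It was at 14.0, 12.6 and 12.6 CPM in E1, E2 and E3, and at 9.99, 8.19 and 10.5 in CE1, CE2 and CE3. In C1, C2 and C3 it was at 20.1, 30.1 and 24.8 CPM. As for Cd79a, WT3 was the highest wild-type library and the C and CE libraries lay apart. In CE against C it fell 2.61-fold (log2 -1.39, SE 0.25, edgeR adjusted p = 0.0342), and over both backgrounds 1.94-fold (log2 -0.96, SE 0.18, edgeR adjusted p = 0.0227). In E against WT the difference was log2 -0.53 (SE 0.25, adjusted p = 0.767), and in C against WT it was 0.41 (SE 0.24, adjusted p = 0.325, and 0.0346 without WT3). The difference between the transgene effects was log2 -0.86 (SE 0.35, unadjusted p = 0.0273, edgeR adjusted p = 0.9997).

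The Blnk call in CE against C lay close to the threshold, and it passed in 9 of 22 alternative fits. It was lost without any one library of C (edgeR adjusted p = 0.0574 without C1, 0.137 without C2 and 0.138 without C3) or of CE (0.204 without CE1, 0.209 without CE2 and 0.146 without CE3). It was also lost without E1 (0.0539), E2 (0.0564), E3 (0.0641) or WT2 (0.0501), and without E1 and E2 together (0.0727), libraries that are not in the comparison and lend only their spread to it, and with the Y-linked covariate (0.125). The log2 difference stayed between -1.23 and -1.52 when 1 library was left out, and it was -1.65 without C1 and C3 together (edgeR adjusted p = 0.366). Over both backgrounds Blnk passed in 13 of 21 alternative fits. It did not pass there without C2 (edgeR adjusted p = 0.0722), C3 (0.0573), CE1 (0.0679), CE2 (0.0744), E2 (0.0662) or E3 (0.0863). Nor did it without C1 and C3 together (0.103) or without E1 and E2 together (0.14).

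Promoter sequences of Cd79a and Blnk, which fell together, are shown beside that of Btk, which hardly varied. RefSeq promoter entries (GRCm38.p6) were matched by symbol for 6 of the 9 members, and the 250 bases before each entry's start were searched on both strands. For Cd79a and Blnk this start is the edge of the gene as given above. For Btk it lies 488 bases inside the gene, for Cd72 476, for Cd22 1314 and for the Syk entries 827 and 14272, so those windows overlap the gene. The motifs were the octamer ATGCAAAT of OCT factors, the ETS core GGAAGT, the E-box CAGGTG that E2A binds, the EBF1 motif (TCCC and GGGA with NN between them) and the E-box CACGTG of MYC. Capitals mark matches, in either orientation. The Cd79a window is chr7:24897247-24897496 (plus strand), the Blnk window chr19:40994222-40994471 and the Btk window chrX:134583141-134583390 (both minus strand), and each is printed 5′ to 3′ on the gene's strand.
Cd79a: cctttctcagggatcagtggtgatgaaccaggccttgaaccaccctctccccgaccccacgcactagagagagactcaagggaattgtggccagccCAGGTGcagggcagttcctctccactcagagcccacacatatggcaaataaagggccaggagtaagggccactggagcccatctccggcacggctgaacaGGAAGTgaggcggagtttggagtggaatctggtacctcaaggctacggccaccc
Blnk: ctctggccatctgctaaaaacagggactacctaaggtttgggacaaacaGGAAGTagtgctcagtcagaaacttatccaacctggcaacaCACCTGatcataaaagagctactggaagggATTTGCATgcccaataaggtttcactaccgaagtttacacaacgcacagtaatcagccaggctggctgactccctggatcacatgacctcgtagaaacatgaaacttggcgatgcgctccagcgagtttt
Btk: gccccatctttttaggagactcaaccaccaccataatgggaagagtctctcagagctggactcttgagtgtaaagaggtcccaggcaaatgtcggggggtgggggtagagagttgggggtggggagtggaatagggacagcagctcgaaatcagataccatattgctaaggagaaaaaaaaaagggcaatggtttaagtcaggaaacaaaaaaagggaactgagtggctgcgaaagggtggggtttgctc

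Cd79a held the E2A E-box at -154 to -149 and the ETS core at -54 to -49 from the entry's start. Blnk held the ETS core at -201 to -196, the E-box at -160 to -155 and the octamer at -130 to -123. None of the 5 motifs was found in the Btk window. Of 32851 RefSeq promoter windows of this length, 19.7% held the ETS core, 17.2% the E2A E-box, 3.4% both of these, 1.6% the octamer, 0.779% the EBF1 letters and 6.02% the MYC E-box. Among the other members with an entry, Cd72 held the ETS core, Syk the E2A E-box in both of its windows, and Cd22 the E2A E-box and the EBF1 letters. The MYC E-box was in none of the members' windows. Only exact letters were counted, so a site of the same factor with other letters would be missed, in Cd79a as elsewhere. A match describes letters, and nothing about a factor is drawn from a match or from its absence.

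Blk (gene 12143, chr14:63372837-63417187), a Src family kinase of the B lineage, was low throughout. It was at 1.64, 5.92 and 2.64 CPM in WT2, WT3 and WT4 and at 6.00, 2.85 and 1.34 in E1, E2 and E3. It was at 5.42, 6.56 and 5.88 CPM in C1, C2 and C3 and at 1.42, 1.77 and 1.84 in CE1, CE2 and CE3. C and CE lay apart, while WT and E overlapped, with E1 as high as C. In CE against C the difference was 3.55-fold (log2 -1.83, SE 0.46) and did not pass in the fit of all libraries (unadjusted p = 0.00127, edgeR adjusted p = 0.255). It passed in 3 of 22 alternative fits: only C and CE fitted (adjusted p = 0.000335), limma voom (0.024) and no filter on low counts. With DESeq2 it did not pass (adjusted p = 0.161). In E against WT the difference was log2 -0.02 (SE 0.45, adjusted p = 0.995). The difference between these effects was log2 -1.81 (SE 0.64, unadjusted p = 0.0131), with an edgeR adjusted p of 0.9997. It was -1.16 without E1, -2.48 without WT3 and -0.46 without E1 and E2 together. Blk shares 360 bases with the long noncoding gene Gm36165, and without strand their reads could not be separated.

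**Figure D2:**
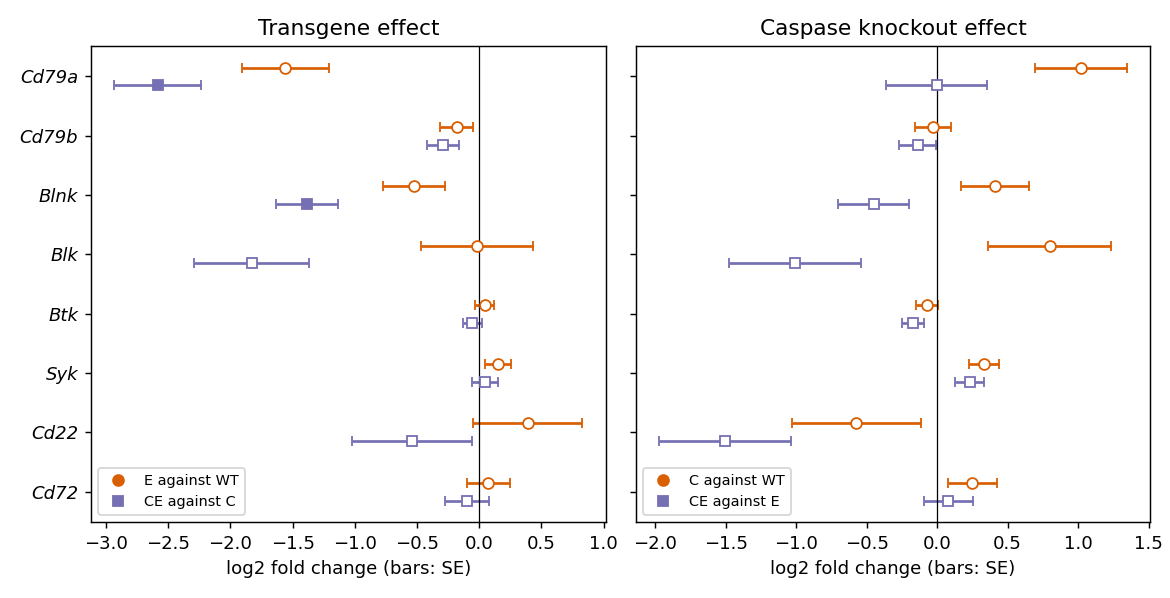
Log2 fold change of the 8 tested members with the transgene (left, E against WT and CE against C) and with the caspase knockout (right, C against WT and CE against E). Bars are 1 SE of the fit and filled symbols mark an adjusted p under 0.05. Only Cd79a (-2.58) and Blnk (-1.39) in CE against C are filled.

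Syk (gene 20963, chr13:52582610-52648792), the kinase that docks on the phosphorylated heterodimer, had the most counts of the members. It was at 201.2, 254.0 and 268.9 CPM in WT2, WT3 and WT4 and at 259.4, 262.8 and 281.2 in E1, E2 and E3. It was at 289.8, 306.2 and 315.3 CPM in C1, C2 and C3 and at 305.9, 313.3 and 323.3 in CE1, CE2 and CE3. Every library without the caspases lay above every library with them, and the transgene groups overlapped with their controls. In C against WT the difference was 1.26-fold (log2 0.33, SE 0.11, edgeR adjusted p = 0.0886), and in CE against E it was 1.17-fold (log2 0.23, SE 0.11, adjusted p = 0.209). Neither passed, but C against WT did in 4 of 22 alternative fits. Among these were DESeq2 (adjusted p = 0.0237), limma voom (0.0246) and the fit without WT4 (0.0171). Another was the replicate block, which also takes WT4 out of the WT mean. With the transgene the log2 differences were 0.15 (SE 0.11) in E against WT and 0.05 (SE 0.10) in CE against C. Such separation was common: 26.3% of all genes had groups without overlap in C against WT and 29.9% in CE against E. The caspase label also nearly coincides with Y-linked transcripts. CE3, which lacks those transcripts, was at 323.3 CPM, and CE3 alone cannot tell the label and the transcripts apart. With the Y-linked covariate, which rests on CE3 against CE1 and CE2, the log2 difference was 0.39 in C against WT (edgeR adjusted p = 0.508). In CE against E it was 0.27 (0.306).

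Btk (gene 12229, chrX:134542334-134583628), the kinase that activates phospholipase C gamma 2, was the steadiest member. It was at 141.5, 142.3 and 129.7 CPM in WT2, WT3 and WT4 and at 142.7, 137.3 and 146.5 in E1, E2 and E3. It was at 129.0, 130.4 and 134.3 CPM in C1, C2 and C3 and at 129.0, 128.4 and 121.5 in CE1, CE2 and CE3. C and CE did not overlap, but their nearest libraries, C1 and CE1, were both at 129.0 CPM. In CE against E the libraries also lay apart, with log2 -0.17 (SE 0.08, unadjusted p = 0.0473, edgeR adjusted p = 0.214). The other differences between genotypes ran from log2 -0.07 to 0.04 (SE 0.08 each) and none passed.

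The members that dampen the signal were Cd22 and Cd72. Cd72 (gene 12517, chr4:43447724-43455102) was at 20.4, 30.5 and 36.4 CPM in WT2, WT3 and WT4 and at 34.1, 26.8 and 31.0 in E1, E2 and E3. It was at 36.8, 35.6 and 31.2 CPM in C1, C2 and C3 and at 37.2, 31.8 and 27.9 in CE1, CE2 and CE3. All groups overlapped, and the log2 differences ran from -0.10 to 0.25 (SE 0.17 to 0.18 each) with no call in any alternative fit. Cd72 overlaps Tesk1 by 352 bases, so reads there are uncertain without strand. Cd22 (gene 12483, chr7:30865404-30880342) was at 1.64, 1.56 and 0.953 CPM in WT2, WT3 and WT4 and at 2.92, 1.71 and 0.870 in E1, E2 and E3. It was at 1.35, 0.417 and 1.06 CPM in C1, C2 and C3 and at 0.450, 0.680 and 0.788 in CE1, CE2 and CE3. E1 was the highest library, and all of CE lay below all of E. In CE against E Cd22 was 2.84-fold lower (log2 -1.50, SE 0.47, edgeR adjusted p = 0.0879). It passed in 2 of 22 alternative fits, with DESeq2 (adjusted p = 0.0287) and with no filter on low counts. Its other differences had SE of 0.44 to 0.48 and did not pass.

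Ms4a1 (gene 12482, chr19:11249679-11266149), the CD20 gene of mature B cells, had 21, 8 and 6 counts in E1, E2 and E3. It had 1 count in each of C1 and C3 and 0 in C2, and 0 in every library of WT and CE. The 35 counts of E against none were at least 11.5-fold higher than in WT and at least 12.8-fold higher than in CE, with a floor of 3 counts over the group. Against the 2 counts of C the ratio was 20.2 (95% counting interval 5.20 to 173.8, for counting error only). All 3 E libraries held the transcript, but 21 of the counts came from E1. The filter on low counts kept it out of the main test, and only the alternative with no filter tested it. The gene lies within the long noncoding gene 4930526L06Rik, which had 8 counts over all libraries.

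Igkc and Jchain, among the transcripts of later B-lineage cells, were high in some of the same libraries. Igkc, the kappa light chain constant region, was at 252.9 and 310.8 CPM in E1 and E2, at 22.7 in E3 and at 5.95 to 83.3 in the others. Jchain, which joins secreted immunoglobulins, was at 76.7 and 85.3 CPM in E1 and E2, 6.48 in E3 and 1.70 to 21.5 elsewhere. E3, where Igkc and Jchain lay within the range of the other genotypes, had 6 counts of Ms4a1. The mature B-cell list of 12 genes summed to 692.5 to 1753 CPM in E, 632.7 to 828.6 in WT, 750.6 to 903.4 in C and 699.6 to 837.4 in CE. The highest sum, in E2, held 1140 CPM of Ighm. Of the 10 tested genes of this list, 7 had a positive and 3 a negative log2 difference in E against WT. Fcer2a, Bank1 and Cd83 had lower means in E (0.349, 1.24 and 0.891 CPM) than in WT (0.418, 1.53 and 1.03). The plasma cell list of 7 genes summed to 194.6 to 304.9 CPM in E, 188.6 to 239.7 in WT, 155.4 to 177.4 in C and 139.3 to 235.4 in CE. Siglech, a marker of plasmacytoid dendritic cells, was at 12.5 CPM in E1 and 9.50 in WT3 and at most 1.30 elsewhere. The part of such cells in Ms4a1, Cd22 and Blk was not tested. Without E1 and E2 together, the log2 difference in E against WT turned from 0.39 to -0.69 for Cd22, and in CE against E that of Blk turned from -1.01 to 0.32, none of them past the threshold.

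**Figure D3:**
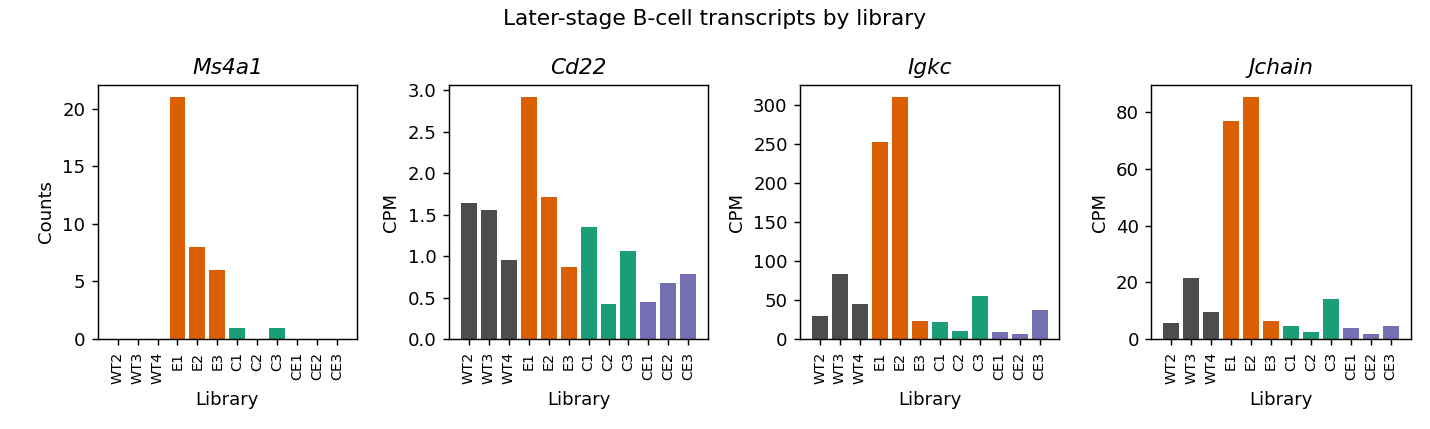
Ms4a1 counts, and the CPM of Cd22, Igkc and Jchain, in each of the 12 libraries (linear axes from 0, bars coloured by genotype). E1 and E2 carried most of the Igkc and Jchain, and E1 was the highest for Ms4a1 and Cd22.

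Counted over the 8 tested members at an edgeR adjusted p under 0.05, 2 fell and none rose in CE against C, where 0.207% of all tested genes passed. Over both backgrounds 2 fell and none rose, where 0.539% passed. In both cases these were Cd79a and Blnk. None passed in E against WT, where 0.0829% of genes passed. There 1 member had an unadjusted p under 0.05, none passed by DESeq2 and 1 by limma voom (6.58%, 0.332% and 0.117% of all genes). None passed in C against WT, where 0.656% of genes passed. There 2 members had an unadjusted p under 0.05, and 1 each passed by DESeq2 and limma voom (23.2%, 8.26% and 12.3% of all genes). None passed in CE against E, where 1.58% of genes passed. There 4 members had an unadjusted p under 0.05, 1 passed by DESeq2 and none by limma voom (22.6%, 8.17% and 9.62% of all genes). For the difference between the transgene effects no member passed by edgeR, DESeq2 or limma voom, and 0% of all genes passed. An unadjusted p under 0.05 was seen for 2 members and for 2.11% of all genes.

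Groups without overlap were seen for 1 of 8 members in E against WT (8.02% of all genes), 4 in CE against C (14.9%), 2 in C against WT (26.3%) and 4 in CE against E (29.9%). The 4 in CE against C were Cd79a, Blnk, Blk and Btk, of which Btk differed by log2 -0.06. The median log2 difference of the members was -0.42 in CE against C and -0.16 over both backgrounds, against 0.01 and -0.00 over all genes. It was 0.29 in C against WT and -0.15 in CE against E, against -0.01 and 0.00 over all genes. In E against WT it was 0.01, against -0.00.

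Across the 12 libraries Blnk and Blk varied most closely with Cd79a. Pearson's r of log2 CPM with Cd79a was 0.91 for Blnk and 0.77 for Blk, and 0.80 and 0.68 after the mean of each genotype was removed. With Cd79b it was 0.49, and -0.05 after removal of the genotype means. It was -0.05 with Syk, -0.00 with Btk, 0.03 with Cd22 and 0.06 with Cd72, and -0.25, 0.45, 0.38 and -0.26 after that removal. These values describe 12 libraries that share their genotypes and scaling, and carry no test. Among the genes most like Cd79a over all those tested were Gfra2 (r = 0.972), Cecr2 (0.970), Vpreb3 (0.966) and Lef1 (0.957). Vpreb3 encodes a protein of early B-lineage cells and Lef1 a factor of lymphoid progenitors. Their r within genotypes was 0.849 for Gfra2, 0.907 for Cecr2, 0.860 for Vpreb3 and 0.762 for Lef1. The genes most like Syk were Elf4 (0.984), Abcc1 (0.980), Stat5b (0.980), Tns1 (0.978) and Iqsec2 (0.976). Elf4 and Stat5b encode transcription factors, Abcc1 a membrane transporter.

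**Figure D4:**
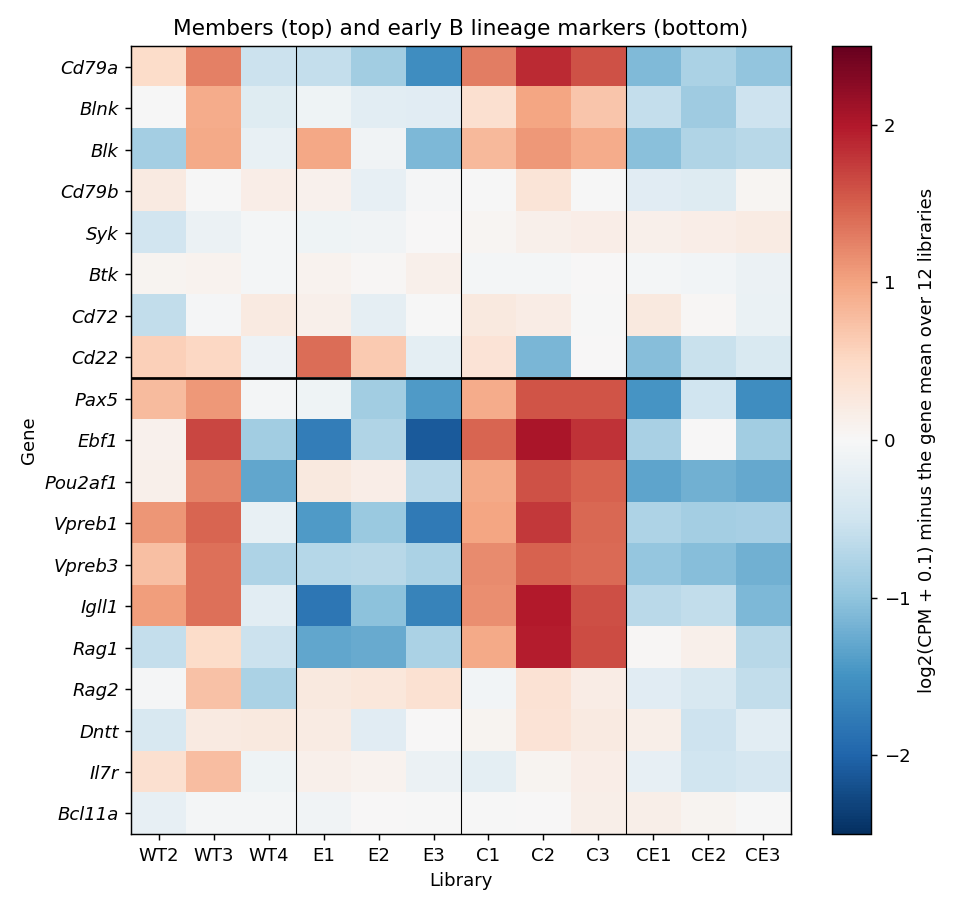
Log2(CPM + 0.1) minus the gene's mean over the 12 libraries, for the 8 tested members above the line and 11 early B-lineage markers below it (red high, blue low). Cd79a, Blnk and Blk are high in WT3 and the C libraries with Pax5 and Ebf1, while Cd79b, Syk and Btk stay near 0.

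Part of the early B-lineage markers fell in the comparisons in which Cd79a and Blnk fell. Of the 11 on the list, 6 fell and none rose in CE against C (median log2 -2.27), 7 fell over both backgrounds and 2 fell in E against WT, all by the edgeR test, by which 0.207%, 0.539% and 0.0829% of all genes passed. Rag2, Dntt, Il7r and Bcl11a were among the 5 that did not pass in CE against C. In C against WT only Rag1, a gene of the receptor gene recombinase, rose, from 4.71, 9.97 and 4.89 CPM in WT2, WT3 and WT4 to 14.0, 28.3 and 22.6 in C1, C2 and C3, where 0.656% of all genes passed. Pax5, the factor that commits cells to the B lineage, was at 3.01, 4.77 and 4.76 CPM in C1, C2 and C3 and at 0.484, 1.05 and 0.460 in CE1, CE2 and CE3. In WT it was at 2.74, 3.38 and 1.47 CPM, highest in WT3 as for Cd79a, and in E at 1.42, 0.791 and 0.514. The summed level of the list was 576.8 to 828.8 CPM in WT, 584.8 to 733.0 in E, 755.1 to 927.0 in C and 528.1 to 733.2 in CE. Most of that sum was Dntt, at 345.1 to 628.4 CPM, the lymphoid gene that adds bases to receptor joints and is used before B-lineage commitment. None of the 11 markers was at 0 in any library. Lists of other cell types shifted as well. Of 10 stem cell markers, all had a positive log2 difference in CE against C (median 0.37) and over both backgrounds (median 0.29), where Hlf and Mecom rose by the edgeR test. In CE against C none of them passed by edgeR (5 at an unadjusted p under 0.05, 1 by DESeq2, 3 by limma voom). Of all genes, 5.14% had an unadjusted p under 0.05 there, with 0.456% called by DESeq2 and 0.753% by limma voom. Of 8 erythroid markers, all had a negative log2 difference in CE against C (median -1.18) and over both backgrounds (median -0.81), and none passed by edgeR. At an unadjusted p under 0.05 there were 5 and 4 of them, with none by DESeq2 and 0 and 1 by limma voom. Over both backgrounds these shares of all genes were 8.98%, 1.44% and 1.22%. The part of B-committed cells, or of other cells, in the fall of Cd79a and Blnk was not tested. Over all 12 libraries the stem cell list summed to 568.6 to 862.1 CPM, highest in CE, the plasmacytoid dendritic cell list to 482.5 to 740.0 and the monocyte list to 504.9 to 702.5. The neutrophil list summed to 7686 to 12337 CPM, the megakaryocyte list to 447.4 to 658.7, the erythroid list to 279.9 to 625.5, the T and NK cell list to 162.4 to 290.7, and the basophil and mast cell list to 68.0 to 219.1.

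Of 22 other genes of the receptor pathway, 21 were tested, and none passed by edgeR in any comparison. At an unadjusted p under 0.05 stood none in E against WT (none by DESeq2 or limma voom), 1 in CE against C (none by DESeq2, 1 by limma voom), 6 in C against WT (3 by DESeq2, 5 by limma voom) and 2 in CE against E (none by either). Over both backgrounds it was 1 (none by DESeq2, 1 by limma voom), and for the difference between the transgene effects none by any of the tests. Of all genes, 23.2% had an unadjusted p under 0.05 in C against WT, with 8.26% called by DESeq2 and 12.3% by limma voom. In CE against E these shares were 22.6%, 8.17% and 9.62%. They were 6.58%, 0.332% and 0.117% in E against WT, 5.14%, 0.456% and 0.753% in CE against C, and 8.98%, 1.44% and 1.22% over both backgrounds. Prkcb, a protein kinase C downstream of the receptor, had the smallest p in CE against C. It was at 9.78, 12.1 and 12.9 CPM in C1, C2 and C3 and at 6.26, 6.97 and 8.18 in CE1, CE2 and CE3, without overlap (log2 -0.70, SE 0.21, edgeR adjusted p = 0.521). It passed there with limma voom (adjusted p = 0.0439). Over both backgrounds its log2 difference was -0.46 (SE 0.15, edgeR adjusted p = 0.301, and 0.0246 with limma voom). Cblb, which encodes a ubiquitin ligase, was at a log2 difference of 0.16 in CE against C (SE 0.11, edgeR adjusted p = 0.999). The smallest p of E against WT belonged to Rasgrp3 (log2 0.85, SE 0.44, edgeR adjusted p = 0.768), a Ras exchange factor, and to Lyn (log2 0.17, SE 0.09, 0.768), a Src family kinase that phosphorylates the heterodimer. Dapp1, an adaptor at the membrane, differed over both backgrounds by log2 0.12 (SE 0.07, edgeR adjusted p = 0.642).

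In C against WT, Pik3ap1, an adaptor for phosphoinositide 3-kinase, differed by log2 0.48 (SE 0.14, edgeR adjusted p = 0.0716) and Vav2, a guanine nucleotide exchange factor, by 0.46 (SE 0.13, 0.073). Both passed with DESeq2 (adjusted p = 0.0169 and 0.0187) and limma voom (0.0316 and 0.0192), and without WT4 (0.0256 and 0.0133). Pik3ap1 also passed without WT3 (0.0422). In CE against E, Plcg2, the phospholipase that BTK activates, differed by log2 0.26 (SE 0.11, adjusted p = 0.171) and Pik3ap1 by 0.33 (SE 0.14, 0.173). Plcg2 was at 226.4, 265.7 and 311.8 CPM in WT2, WT3 and WT4 and at 323.8, 340.6 and 332.9 in C1, C2 and C3. The median log2 difference of the 21 genes was 0.11 in E against WT, 0.02 in CE against C, 0.08 in C against WT, 0.06 in CE against E and 0.06 over both backgrounds.

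The 15 genes listed as inhibitors of receptor signalling were all tested, and none passed by edgeR in any comparison. The list also holds Fcrl1 and Fcrla, whose action on the receptor was not examined here. At an unadjusted p under 0.05 stood 1 in E against WT (1 by DESeq2, none by limma voom), none in CE against C (none by either), 4 in C against WT (none by DESeq2, 3 by limma voom) and 5 in CE against E (3 by each). Over both backgrounds and for the difference between the transgene effects it was 1 each, with none by DESeq2 or limma voom. The shares of all genes are those given for the pathway genes, and for the difference 2.11% had an unadjusted p under 0.05. Fcrla, an intracellular Fc receptor-like protein of B cells, was at 3.71, 3.80 and 1.46 CPM in E1, E2 and E3 and at 0.402, 1.28 and 0.433 in WT2, WT3 and WT4. It was at 0.518, 0.686 and 0.578 CPM in C1, C2 and C3 and at 0.450, 0.578 and 1.28 in CE1, CE2 and CE3. All E libraries lay above all others, with E1 and E2 farthest. The log2 difference was 2.05 in E against WT (SE 0.49, edgeR adjusted p = 0.265, and 2.83 without WT3) and -1.95 in CE against E (SE 0.48, adjusted p = 0.0535). With DESeq2 both passed (adjusted p = 0.0159 and 0.00465), and CE against E passed with edgeR without WT2 (0.028), WT3 (0.0489) or WT4 (0.0196).

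Among the other genes of that list, Inpp5d, the lipid phosphatase SHIP1, was log2 0.26 higher in C than in WT (SE 0.10, edgeR adjusted p = 0.143, and 0.0242 without WT4). Fcgr2b, the inhibitory Fc receptor, differed there by log2 -0.33 (SE 0.12, adjusted p = 0.129, and 0.0464 without WT3). Sh2b3, an adaptor that restrains cytokine signalling, differed by log2 0.43 in CE against E (SE 0.13, edgeR adjusted p = 0.0856). It passed there with DESeq2 (adjusted p = 0.0328) and limma voom (0.0396), and without WT2 (0.0349) or WT4 (0.0207). Ceacam1 in E against WT (log2 0.27, SE 0.16, adjusted p = 0.768), Pirb in CE against C (0.41, SE 0.30, adjusted p = 0.999) and Cd5 in CE against C (-0.39, SE 0.30, adjusted p = 0.999) completed the smallest p-values of those comparisons. The median log2 difference of the 15 listed genes was 0.02 in E against WT, 0.04 in CE against C, 0.05 in C against WT and 0.04 in CE against E.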

How the data were processed

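Total RNA of sorted hematopoietic stem cells was sequenced with 1 library per mouse. The deposited table holds raw counts per gene, whole numbers with no normalization by the authors found in them. Reads were aligned with STAR 2.5.3 to mm10, per the submitters' processing notes. Not given in the sources used here are the read counter, its strand setting and its annotation. Gene numbers were given symbols and positions from RefSeq (25275 of 27179 matched), and exon lengths came from GENCODE.

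Counts were analysed with edgeR 4.0.16 in R 4.3.3, using TMM factors, filterByExpr by group, group means of all 12 libraries and the two-sided quasi-likelihood test. The threshold was 0.05 for the p-value adjusted after Benjamini and Hochberg over 14473 genes. SE is the log2 difference divided by the root of F. The pipeline was tested on simulated data. Depth was 24529611 to 34065910 counts per library. The p-values rest on the spread between the 3 mice of a genotype, estimated jointly over all 12 libraries and drawn towards that of other genes. Comparisons that share a control group are not independent of each other.

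The members and gene lists were chosen with earlier results of these data known. Named are all members, from each pathway list the genes past the threshold or the 2 with the smallest p, and the 5 genes most like Cd79a and like Syk (r of log2 CPM, prior count 2). Some results under this rule are not reported here, and counts over the lists leave them out. Marker lists covered stem cells, early and mature B cells, plasma cells, plasmacytoid dendritic cells, monocytes, neutrophils, basophils and mast cells, megakaryocytes, T and NK cells and erythroid cells. Alternatives were RLE factors, no or a stricter filter, DESeq2 1.42.0, voom of limma 3.58.1, only the groups compared, the replicate number as a block, a Y-linked covariate, and leaving out each library, C1 and C3, or, chosen after the data were seen, E1 and E2. Leaving out a pair leaves 1 library in that group, which is assumed to vary like the others. The Y-linked covariate varies within a genotype only in CE, through CE3. WT4 is the only library numbered 4, so the replicate block takes it out of the WT mean.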

Additional observations from a re-analysis of the deposited data

How the results depend on the processing

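Cd79a over both backgrounds kept its call in every alternative, and RLE factors and the stricter filter changed no count of members that passed. In CE against C, 1 member passed with the Y-linked covariate, 1 without E1 and E2 together and 0 without C1 and C3 together, and 0 to 2 when 1 library was left out. Over both backgrounds 1 passed without C1 and C3 together, 1 without E1 and E2 together, and 1 to 2 without 1 library. In E against WT 1 passed with limma voom, 1 with the replicate block and 0 to 1 without 1 library. With no filter on low counts 2 passed there, Cd79a and Ms4a1, the latter tested only in that alternative. In C against WT 1 each passed with DESeq2, limma voom, no filter and the replicate block, and 0 to 2 without 1 library. In CE against E 1 passed with DESeq2 and 3 with no filter (Blk, Cd22 and Ms4a1). For the difference between the transgene effects 1 passed with no filter. The cause was not tested. The labels do not say whether the replicate numbers pair the mice. Deviations of same-numbered libraries of different genotypes had r of -0.244 to 0.166, and those of differently numbered ones -0.259 to 0.282. Under the block Cd79a passed in E against WT (log2 -1.88, edgeR adjusted p = 0.0311) and Syk in C against WT (log2 0.45, edgeR adjusted p = 0.0147). WT4 is alone in its block, so these fits take it out of the WT mean. They are close to the fits without WT4 (log2 -1.89 and 0.43) and are not separate from them. Of 1040 log2 differences of members under alternatives, 943 kept direction and side of the threshold, 24 were no longer past it, 20 newly were, and 53, in 16 uncalled results, changed sign. With the Y-linked covariate these were Cd79b in C against WT (0.333) and CE against E (0.093), Cd72 in C against WT (-0.0578), CE against E (-0.134) and over both backgrounds (0.0364), and Btk over both backgrounds (0.00801). With limma voom they were Cd79a in CE against E (0.159), Cd79b in C against WT (0.0186), Cd22 in E against WT (-0.106) and Cd72 over both backgrounds (0.0387). With the replicate block they were Cd79b in C against WT (1.5e-05), Cd22 in E against WT (-0.0681) and Cd72 over both backgrounds (0.0438). With no filter it was Btk over both backgrounds (0.00177). Without C1 and C3 together they were Cd79b in C against WT (0.2002), Btk over both backgrounds (0.00545), and Cd22 in CE against C (0.609), over both backgrounds (0.507) and in the difference between the transgene effects (0.206). Without E1 and E2 together they were Cd79a (0.616) and Blk (0.316) in CE against E, Btk over both backgrounds (0.0156), and Cd22 in E against WT (-0.686) and in the difference (0.153). Leaving out 1 library gave the ranges -0.236 to 0.205 (Cd79a, CE against E), -0.156 to 0.0398 (Cd79b, C against WT), -0.255 to 0.0155 (Cd79b, difference), -0.675 to 0.661 (Blk, E against WT), -0.024 to 0.0155 (Btk, both backgrounds), -0.0794 to 0.721 (Cd22, E against WT), -0.314 to 0.097 (Cd22, both backgrounds), -0.112 to 0.274 (Cd72, E against WT), -0.0352 to 0.178 (Cd72, CE against E), -0.107 to 0.0859 (Cd72, both backgrounds) and -0.375 to 0.0103 (Cd72, difference). For the 24 named results of the pathway lists, 476 of 514 values kept direction and side of the threshold, 38 newly passed and 0 changed sign. The likeness to Cd79a or Syk of the genes named for it stayed at r of 0.9497 to 0.9936 with RLE factors and without each library. Ms4a1, Cd22 and Blk had the fewest reads per kilobase. Without the low-count filter the adjusted p of Cd79a in E against WT went from 0.227 to 3.94e-10.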
